A study of Xenopus laevis with 8 samples.

Results

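Collagens, laminins and integrins make up much of the extracellular matrix and its main receptors at the cell surface. Their genes were picked by symbol from a table of 45035 Xenopus laevis genes, and no measured value entered the choice. Genes named like a numbered collagen alpha chain, laminin alpha, beta or gamma chain, or integrin alpha or beta subunit were taken. Subunits named with a letter, such as itgav for alpha-V, fall outside this rule. The rule found 127 genes. Of these, 122 encode a chain or a subunit: 71 are collagen, 18 laminin and 33 integrin genes. They carry 71 gene names, because the genome of this frog is duplicated and many genes exist in a pair, as copy .L (long) and copy .S (short). The other 5 only share the start of a name: col4a3bp.L and col4a3bp.S (ceramide transfer), itgb1bp1.S and itgb1bp2.L (proteins that bind an integrin tail) and itgb3bp.L (a centromere protein). They are left out of the counts below.

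Total RNA was read from ectodermal explants of wild-type embryos, cultured and collected at the early neurula stage, with 2 libraries in each of 4 groups. Explants with both proteins (libraries 7 and 8) expressed Chordin and Pinhead, Chordin explants (3 and 4) and Pinhead explants (5 and 6) expressed 1 of them, Pinhead carrying a Flag tag per the series text, and control explants (1 and 2) expressed neither. The labels give no dose, no embryo batch and no way of expression, so the spread that p-values rest on is that between libraries and may be technical. Chordin binds and blocks bone morphogenetic proteins outside the cell, Pinhead is secreted in the early embryo, and the series asks about dorsal mesodermal genes, of which the notochord expresses many.

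The libraries held 15052017 to 19677493 counts, and 1 CPM (counts scaled to library size and composition) stood for 14.5 to 19 counts. Matrix and receptor genes took 0.173% and 0.197% of all counts with both proteins, 0.137% and 0.139% of those with Chordin, 0.166% and 0.158% of those with Pinhead, and 0.114% and 0.11% in control. The expressed genes followed the labels: chrd.S stood at 793 to 934 CPM in the 4 libraries with Chordin, against 0.483 to 1.17 CPM in the others. The pnhd.L gene stood at 429 and 486 CPM with both proteins and 1254 and 739 CPM with Pinhead, against 0.328 to 2.89 CPM in the others. It was thus lower with both proteins than with Pinhead alone (-1.12 on the log2 scale, edgeR adjusted p = 0.00473). Comparisons of both proteins with Pinhead, and the interaction, therefore also span a difference in pnhd.L, whose part was not tested. Epidermal markers, 10 genes of the tissue that cultured ectoderm forms by itself, summed to 1414 and 899 CPM with both proteins, 1191 and 1251 CPM with Chordin, 6440 and 6003 CPM with Pinhead, and 7369 and 7155 CPM in control. Libraries 7 and 8 differed from each other in some of these markers: the epidermal regulator tp63.L stood at 16.2 CPM in library 7, against 0.503 CPM in library 8.

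Collagen chains wind into triple helices. Fibrillar collagens form rope-like fibrils, fibril-associated collagens coat them, collagen IV forms the net of basement membranes, and multiplexins such as collagen XVIII join basement membrane to other matrix. Laminins join an alpha, a beta and a gamma chain and lay down the sheet on which a basement membrane is built. Integrins pair an alpha with a beta subunit and bind these proteins or fibronectin. In the frog embryo the notochord becomes wrapped in a sheath rich in collagen II, and the ectoderm holds on to a fibronectin matrix through integrins.

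Of the 122 genes, 69 had enough counts to be tested (39 collagen, 9 laminin and 21 integrin genes), and the other 53 never passed 13 counts in a library. A gene was called at a Benjamini-Hochberg adjusted p under 0.05 over the 23130 genes tested (edgeR quasi-likelihood test). With both proteins, 33 of the 69 were higher than in control and 15 lower, where 33.3% and 32.1% of all genes tested were called higher and lower (65.4% in either direction). Chordin explants had 20 higher and 18 lower than control, where 31.7% and 32% of all genes were called in each direction. Pinhead explants had 14 higher than control, against 6.75% of all genes, and none lower, against 3.92%. Beside that 0 in the edgeR test, 6 genes were lower at an unadjusted p under 0.05, DESeq2 called 0, and 2 were called without library 7 or 8. Set against Chordin alone, explants with both proteins had 25 genes higher and 1 lower, against 6.46% and 4.25% of all genes. Set against Pinhead alone, they had 29 higher and 21 lower, against 30.7% and 31% of all genes (61.7% in either direction). The median log2 fold change of the 69 genes was 0.60 for both proteins over control, -0.07 for Chordin over control (-0.05 with genes at 0 in a group set to their bound), 0.32 for Pinhead over control, 0.76 for both over Chordin and 0.25 for both over Pinhead, while that of all genes lay between -0.01 and 0.03.

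By family, collagens made up 39 of the 69 genes tested and 17 of the 25 higher with both proteins than with Chordin (11 and 9 without libraries 3 and 4). That was 43.6% of the collagens tested, beside 33.3% of the integrins, 11.1% of the laminins and 6.46% of all genes. Of the 39 tested collagens, 25 had their highest mean with both proteins, as did 25.8% of all genes tested. A gene could be tested through enough counts in a single group. Some collagens, such as col8a1.S, col8a1.L, col9a1.L, col9a2.L and col9a2.S, were tested only because they were high with both proteins. Their place among the 25 with the highest mean there was fixed by that choice. The integrin gene itga2.L was tested through these libraries too. This choice also favours counts of genes called higher with both proteins or in the interaction. All genes tested passed the same filter. The highest mean was that with Pinhead for 6 of 9 laminins and 10 of 21 integrins, against 21.2% of all genes. Among the 10, itga4.L and itga4.S were tested only through their counts with Pinhead, so their place there was fixed by that choice. Of the tested integrins, 7 rose and 7 fell with Chordin (33.3% each), near the 31.7% and 32% of all genes that rose and fell. Of the collagens 10 rose and 8 fell (25.6% and 20.5%), lower shares than those of all genes. The 8 became 4 without library 1, 3 or 4, and 5 by DESeq2. Summed over their genes, collagens stood at 366 and 449 CPM with both proteins, 192 and 199 CPM with Chordin, 217 and 224 CPM with Pinhead and 168 and 152 CPM in control. Integrins summed to 611 and 694 CPM with both proteins, 549 and 547 CPM with Chordin, 836 and 801 CPM with Pinhead and 703 and 676 CPM in control. Counts of calls moved with single libraries where groups differed less. Without libraries 1, 2, 3, 4 and 5 in turn, the 14 genes higher with Pinhead became 6, 5, 9, 9 and 7. Without library 3 or 4, the 25 genes higher with both than with Chordin became 16 or 13, and without library 7 the 1 lower gene became 2.

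**Figure D1:**
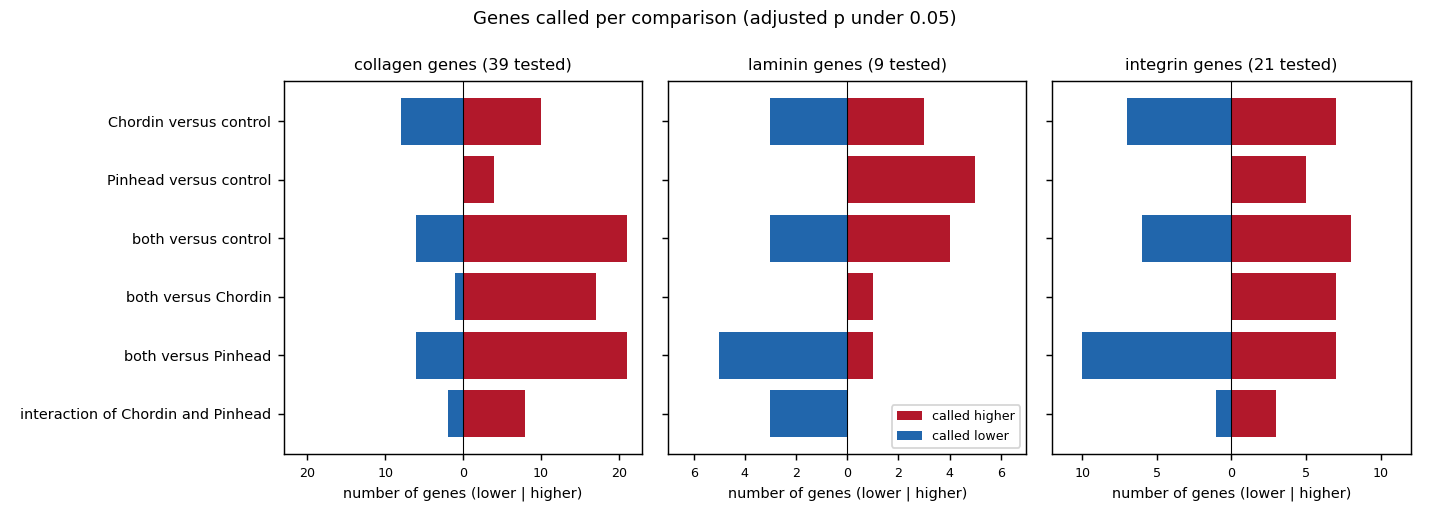
Number of collagen, laminin and integrin genes called higher (red, right of 0) and lower (blue, left of 0) in each comparison at an adjusted p under 0.05; the interaction asks whether Chordin changed a gene differently with Pinhead than without it. Of 39 collagens 21 were higher with both proteins than in control and 6 lower (33.3% and 32.1% of all genes tested). Some of the 21 were tested only through their counts with both proteins. No tested gene of any family was called lower with Pinhead alone (3.92% of all genes).

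**Figure D2:**
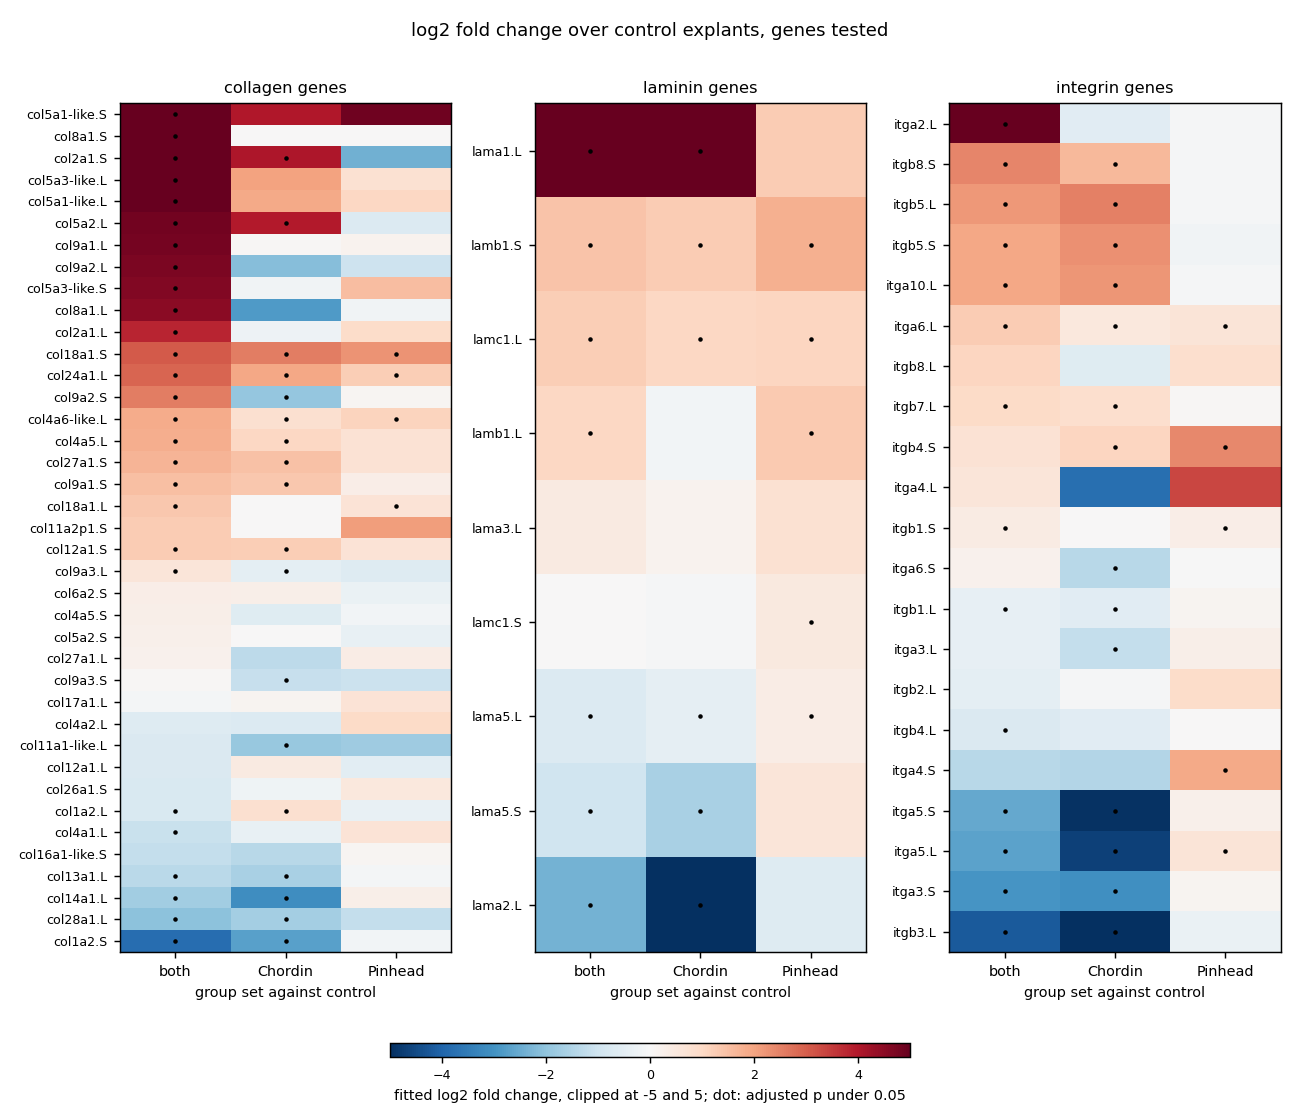
Fitted log2 fold change over control of the 69 genes tested, 1 row a gene, with explants with both proteins, Chordin explants and Pinhead explants as columns; red is higher than control, blue lower, colours end at 5 and -5, and dots mark calls. Where a group held 3 counts or fewer the shade depends on the model's prior count and is no measure of size. Rows of each family are ordered by the fold change of both proteins over control, so the red block at the top of that column follows from the order.

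Some collagens of the notochord sheath, among them both col2a1 copies, were high in explants with both proteins. The col2a1.L gene, which encodes the main fibrillar collagen of cartilage and of the notochord sheath, had 8.47 and 18 CPM with both proteins, 0.498 and 1.09 CPM with Chordin, 1.58 and 2.06 CPM with Pinhead, and 0.845 and 1.05 CPM in control. Both libraries with both proteins lay above the other 6, and library 8 had 2.13 times the level of library 7. The difference from control was 3.80 ± 0.45 on the log2 scale (SE; edgeR adjusted p = 7.19e-05), or 3.19 without library 8. The short copy col2a1.S had 3.92 and 8.22 CPM with both proteins and 0.664 and 0.601 CPM with Chordin, against 0 and 0 CPM with Pinhead and 0.0604 and 0 CPM in control. It was found mainly in the libraries with Chordin. Over Chordin alone it was 9.54-fold higher with both proteins (log2 fold change 3.25 ± 0.48, adjusted p = 0.00411, or 2.63 without library 8), a call lost without library 3 (3.30) or 4 (3.16), with adjusted p = 6.93e-15 to 0.0697 across all alternatives. Over Pinhead it was at least 69.1-fold higher against a floor of 3 counts over the group (adjusted p = 5.86e-05), and at least 43.8-fold without library 8. Its ratio of Chordin to control was 20.1, with a 95% counting interval of 3.27 to 828.7 (adjusted p = 0.0123), which missed the threshold without library 2 and with the copies summed (0.54; adjusted p = 5.22e-05 to 0.402 across the alternatives).

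Collagen IX coats collagen II fibrils, and its chains behaved less uniformly. The alpha chain gene col9a1.L had 5.17 and 12.53 CPM with both proteins, 0.277 and 0.382 CPM with Chordin, 0.527 and 0.138 CPM with Pinhead and 0.241 and 0.394 CPM in control. Its difference from control was 4.79 ± 0.60 (log2; adjusted p = 0.000105, 4.04 without library 8). The second chain, col9a2.L, had 7.6 and 18.8 CPM with both proteins, 0.111 and 0.109 CPM with Chordin, 0.158 and 0.344 CPM with Pinhead and 0.483 and 0.525 CPM in control. It was 113-fold higher with both proteins than with Chordin (6.82 ± 0.64, adjusted p = 0.000315, 6.03 without library 8) and 25.9-fold higher than in control (4.70 ± 0.52, adjusted p = 4.46e-05, 3.93 without library 8). Each Chordin library held fewer than 3 counts of col9a2.L, so the size of the 113-fold difference is uncertain. For both genes the other 6 libraries stood at 0.527 CPM or lower. The third chain was present in every group: col9a3.L had 11.5 and 15.7 CPM with both proteins, 6.53 and 6.28 CPM with Chordin, 5.59 and 5.78 CPM with Pinhead and 9.41 and 8.53 CPM in control. It was higher with both proteins than with Pinhead by 1.26 ± 0.18 (adjusted p = 0.000281), and its call over control (0.60 ± 0.18, adjusted p = 0.0137) was lost without library 2 (0.53) or 8 (0.39), by DESeq2 and with only the 2 groups fitted, with adjusted p = 0.00139 to 0.11 across all alternatives. The short copy col9a1.S followed Chordin instead, with 3.49 and 3.41 CPM with both proteins and 3.54 and 2.79 CPM with Chordin, against 1.42 and 1.65 CPM with Pinhead and 1.27 and 1.18 CPM in control (Chordin over control 1.36 ± 0.28, adjusted p = 0.00224).

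The other short copies of collagen IX were less abundant. The col9a2.S gene had 1.87 and 3.36 CPM with both proteins, 0.0554 and 0.164 CPM with Chordin, 0.527 and 0.413 CPM with Pinhead and 0.422 and 0.459 CPM in control. It was above the other 6 libraries in both libraries with both proteins, by 2.56 ± 0.48 over control (adjusted p = 0.0012) and 4.49 ± 0.59 over Chordin (adjusted p = 0.00171, 5.37 without library 4). The col9a3.S gene had 1.93 and 1.68 CPM with both proteins, 0.941 and 0.601 CPM with Chordin, 0.58 and 1.1 CPM with Pinhead and 2.11 and 1.31 CPM in control, so both proteins overlapped control. Its fall with Chordin (-1.15 ± 0.44, adjusted p = 0.0448) was lost by DESeq2 and without library 1 (-0.75), 3 (-1.49) or 4 (-0.84), with adjusted p = 0.0161 to 0.289 across all alternatives. Collagen XI forms fibrils with collagen II. Its gene col11a1-like.L had 0.81 and 0.336 CPM with both proteins, 0.332 and 0.164 CPM with Chordin, 0.105 and 0.482 CPM with Pinhead and 0.724 and 1.18 CPM in control. Its fall with Chordin (-1.91 ± 0.73, adjusted p = 0.0437) was lost by DESeq2, with copies summed and without any 1 of libraries 1 to 4 (-2.46 to -1.47; adjusted p = 0.00491 to 0.229 across all alternatives). The copy col11a1-like.S reached 0.344 CPM at most and was not tested.

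**Figure D3:**
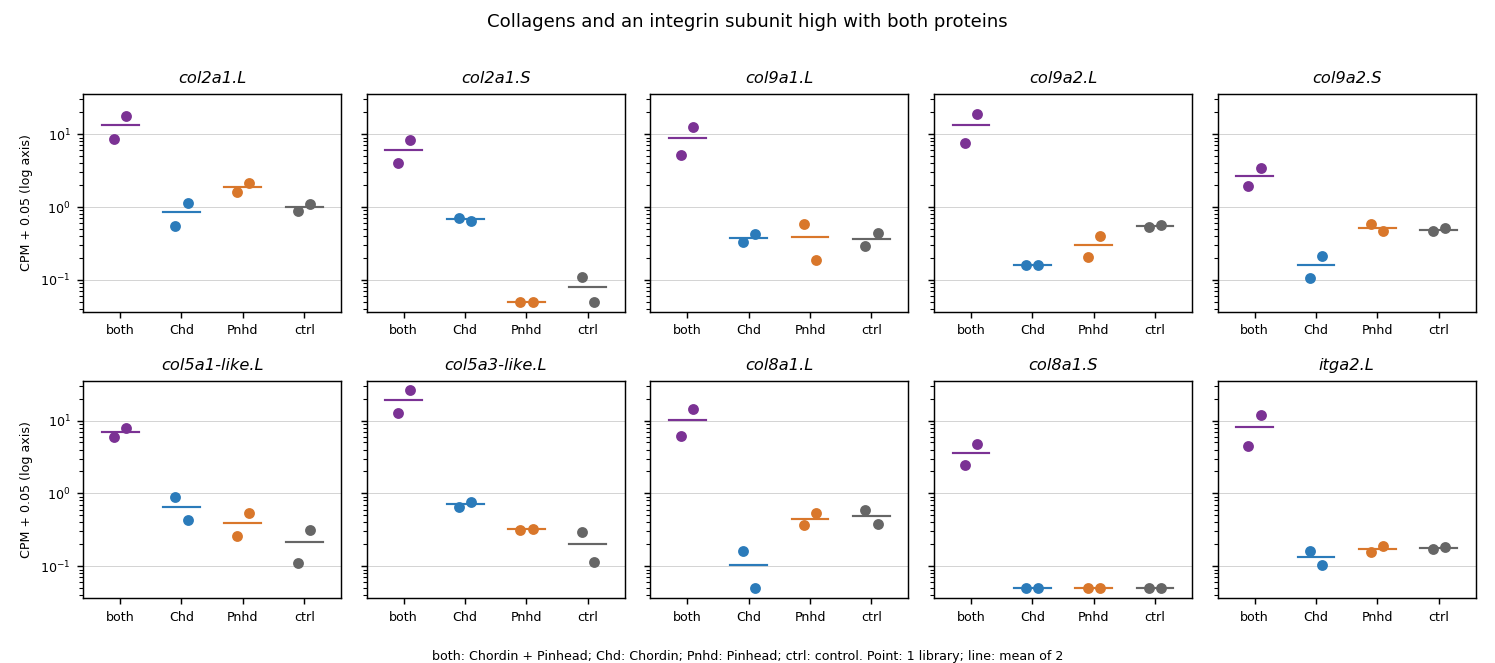
CPM (plus 0.05, log axis) of collagens and the integrin subunit itga2.L in each library, by group, with the group mean as a line. Explants with both proteins stand highest for col2a1.L, col9a1.L and col9a2.L, and library 8, the right point of that group, lies above library 7.

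Collagen V and related chains, which start and limit the growth of fibrils, were also high with both proteins. The col5a3-like.L gene had 12.46 and 25.8 CPM with both proteins, 0.609 and 0.71 CPM with Chordin, 0.264 and 0.275 CPM with Pinhead, and 0.241 and 0.0656 CPM in control. It stood 117-fold above control (6.87 ± 0.55, adjusted p = 6.23e-06), with 8.04, 6.27 and 6.27 without libraries 1, 2 and 8, and 28.7-fold above Chordin (4.85 ± 0.43, 4.23 without library 8). Its copy col5a3-like.S had 3.68 and 9.12 CPM with both proteins, 0.332 and 0.109 CPM with Chordin, 0.844 and 0.619 CPM with Pinhead and 0.0604 and 0.459 CPM in control. It was 28.3-fold above Chordin (4.82 ± 0.70, adjusted p = 0.00274, 5.76 and 4.02 without libraries 3 and 8), a call lost without library 4 (4.22; adjusted p = 3.21e-24 to 0.0574 across all alternatives). The col5a1-like.L gene had 5.86 and 7.83 CPM with both proteins, 0.83 and 0.382 CPM with Chordin, 0.211 and 0.482 CPM with Pinhead and 0.0604 and 0.262 CPM in control. Here libraries 7 and 8 were closer, and the difference from Chordin was 3.49 ± 0.44 (adjusted p = 0.00142, 4.12 without library 3). A rise with Chordin alone was called for col5a2.L, another collagen V chain, which had 6.04 and 13.6 CPM with both proteins and 4.71 and 6.17 CPM with Chordin, against 0.211 and 0.206 CPM with Pinhead and 0.604 and 0.0656 CPM in control. Chordin explants exceeded control by 3.95 ± 0.64 (adjusted p = 0.000509, 6.23 and 3.16 without libraries 1 and 2, and 0.40 with the copies summed). Its short copy col5a2.S, chosen after its values were seen, had 20.1 and 18.4 CPM with both proteins and 15 and 17.7 CPM with Chordin, against 12.3 and 12.6 CPM with Pinhead and 15.9 and 16.2 CPM in control, and was called only over Pinhead (0.63 ± 0.13, adjusted p = 0.00221).

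Collagen VIII and an integrin subunit that binds collagen were likewise high with both proteins. Collagen VIII is a short-chain collagen of sheet-like nets. The col8a1.L gene had 6.04 and 14.2 CPM with both proteins, 0.111 and 0 CPM with Chordin, 0.316 and 0.482 CPM with Pinhead and 0.543 and 0.328 CPM in control (both over control 4.50 ± 0.56, adjusted p = 8.94e-05, 3.79 without library 8). Its copy col8a1.S had 2.37 and 4.64 CPM with both proteins and no count in the other 6 libraries. That made it at least 43.2-fold higher than with Chordin, at least 39.8-fold higher than with Pinhead and at least 37.8-fold higher than in control (3 counts over each group). Without library 8 these bounds were 28.7-fold, 26.4-fold and 25.1-fold. By edgeR the gene was called in all 3 comparisons (adjusted p = 0.0047, 0.000613 and 0.000604), the first lost without library 4, and by DESeq2 in none of them. Over the alternatives the adjusted p ran from 2.42e-18 to 0.365 over Chordin, 3e-18 to 0.138 over Pinhead and 7.77e-18 to 0.133 over control. The itga2.L gene, whose subunit pairs with itgb1 as a collagen receptor, had 4.42 and 12 CPM with both proteins, 0.111 and 0.0546 CPM with Chordin, 0.105 and 0.138 CPM with Pinhead and 0.121 and 0.131 CPM in control. It was 61.9-fold above control (5.95 ± 0.68, adjusted p = 5.45e-05, 5.09 without library 8) and 64.9-fold above Pinhead (6.02 ± 0.68, adjusted p = 5.63e-05, 5.15 without library 8). The sizes of these folds are uncertain, as each control and Pinhead library held fewer than 3 counts of itga2.L. Its ratio to Chordin was 101.8, with a 95% counting interval of 34.5 to 496.8 (adjusted p = 0.000643), and without library 8 it was 53.6 (17.6 to 266.2). The other collagen-binding subunit tested, itga10.L, followed Chordin: it had 0.997 and 0.951 CPM with both proteins and 1.44 and 0.928 CPM with Chordin, against 0.264 and 0.206 CPM with Pinhead and 0.241 and 0.262 CPM in control (Chordin over control 2.20 ± 0.50, adjusted p = 0.00356).

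Sums of notochord and muscle markers were high with both proteins, and the notochord sum was high with Pinhead alone too. The 12 notochord markers summed to 72.6 and 151.3 CPM with both proteins, 18.3 and 17.5 CPM with Chordin, 94.4 and 144.3 CPM with Pinhead and 3.14 and 3.67 CPM in control. The Pinhead sum came mostly from the brachyury copies, with t.L at 50.5 and 70.2 CPM and t.S at 42.8 and 72 CPM there, while the hedgehog ligand shh.L had 0 and 0.0688 CPM with Pinhead, against 5.3 and 17.7 CPM with both proteins. With both proteins 0 of the 12 were at 0, against 3 and 4 in the Chordin libraries, 6 and 3 in those with Pinhead and 3 and 3 in control. By calls, 11 of the 12 were higher with both proteins than in control and 0 lower, against 33.3% and 32.1% of all genes. With Pinhead 2 were higher than in control and 0 lower (1 by DESeq2), against 6.75% and 3.92% of all genes. Over Chordin, 8 were higher with both proteins and 1 lower, against 6.46% and 4.25% of all genes. The 12 muscle markers summed to 44.5 and 94.1 CPM with both proteins, 6.7 and 8.25 CPM with Chordin, 19.7 and 21.2 CPM with Pinhead and 6.52 and 6.69 CPM in control. Of the 11 tested, 8 were higher with both proteins than in control and 0 lower. Over Chordin, 6 were higher with both proteins and 0 lower. Neural crest markers, 10 genes, also summed highest with both proteins, at 16.9 and 25.3 CPM. They summed to 9.91 and 7.65 CPM with Chordin, 10.6 and 12.3 CPM with Pinhead and 14.9 and 14.6 CPM in control. Of the 7 tested, 6 were higher with both proteins than with Chordin and 0 lower, against 6.46% and 4.25% of all genes. Library 8 exceeded library 7 for shh.L 3.34 times, for the notochord regulator foxa4.L 3.08 times and for the muscle actin gene actc1.L 2.39 times. Some collagens did so too, with 2.42 times for col9a1.L, 2.47 times for col9a2.L, 2.34 times for col8a1.L and, among receptors, 2.71 times for itga2.L. Others did so less or not, with 1.36 times for col9a3.L, 1.34 times for col5a1-like.L, 0.978 times for col9a1.S and 0.556 times for col4a1.L, while the notochord gene not.L had a ratio of 1.05 and the median of 19489 genes was 1. The part of these markers in the collagen results was not tested. In whole explants, fewer cells of a type and less RNA per cell cannot be told apart.

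Other collagens went up in more than 1 group. Collagen XVIII is a basement membrane multiplexin, and its long copy col18a1.L stood at 167 and 176 CPM with both proteins, 70.1 and 68.4 CPM with Chordin, 104 and 113 CPM with Pinhead and 73.1 and 62.7 CPM in control. It rose with both proteins over control by 1.34 ± 0.10 (adjusted p = 4.52e-06) and over Chordin by 1.31 ± 0.10 (adjusted p = 0.00011). Its rise with Pinhead alone (0.67 ± 0.10, adjusted p = 0.00396) was lost without library 2 (0.57; adjusted p = 6.21e-07 to 0.0533 across all alternatives). The short copy col18a1.S had 34.8 and 35.9 CPM with both proteins, 22.8 and 26.9 CPM with Chordin, 18.5 and 22.1 CPM with Pinhead and 4.1 and 4.4 CPM in control. All 3 groups exceeded control without overlap, by 3.06 ± 0.15, 2.55 ± 0.15 and 2.25 ± 0.15 (adjusted p = 4.11e-07, 1.03e-06 and 6.31e-05). The fibrillar collagen gene col24a1.L had 8.47 and 11 CPM with both proteins, 4.82 and 5.03 CPM with Chordin, 3.59 and 2.34 CPM with Pinhead and 1.03 and 1.57 CPM in control. It rose with both proteins by 2.91 ± 0.30 and with Chordin by 1.92 ± 0.31 (adjusted p = 2.88e-05 and 0.000511), and its Pinhead call (1.21 ± 0.33, adjusted p = 0.0477) was lost by DESeq2 and without any 1 of libraries 1 to 5 (0.86 to 1.54; adjusted p = 0.00311 to 0.284 across all alternatives).

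The collagen IV chains of the basement membrane divided by gene. The col4a5.L gene had 9.66 and 11.1 CPM with both proteins, 5.37 and 6.66 CPM with Chordin, 4.91 and 4.75 CPM with Pinhead and 3.26 and 2.56 CPM in control (both over control 1.83 ± 0.21, adjusted p = 5.54e-05). The col4a6-like.L gene had 6.04 and 5.26 CPM with both proteins, 2.88 and 2.57 CPM with Chordin, 3.75 and 2.89 CPM with Pinhead and 1.45 and 1.64 CPM in control (both over control 1.87 ± 0.26, adjusted p = 0.000179). Both genes were highest in the 2 libraries with both proteins. The widespread chains col4a1.L and col4a2.L were instead called lower with both proteins than with Pinhead. Against control, only col4a1.L of these was called lower with both proteins (-1.10, adjusted p = 0.0478). That call was lost, among other settings, without library 1 (-0.90) or 2 (-1.25). Neither gene was called lower with both proteins than with Chordin. The col4a1.L gene had 1.31 and 0.727 CPM with both proteins, against 4.48 and 2.41 CPM with Pinhead (-1.78 ± 0.41, adjusted p = 0.00416), with 1.55 and 1.8 CPM with Chordin and 2.41 and 1.9 CPM in control. The col4a2.L gene had 4.3 and 2.63 CPM with both proteins, against 12.3 and 8.39 CPM with Pinhead (-1.59 ± 0.33, adjusted p = 0.00224), with 4.21 and 2.51 CPM with Chordin and 6.16 and 4.53 CPM in control. These 2 genes are neighbours in the RefSeq annotation of the Xenopus_laevis_v10.1 assembly. Their short copies reached 0.211 and 0.362 CPM at most and were not tested.

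Some collagens were lower with Chordin, with or without Pinhead. The transmembrane collagen col13a1.L had 1.81 and 1.9 CPM with both proteins and 1.77 and 1.31 CPM with Chordin, against 4.8 and 3.99 CPM with Pinhead and 5.73 and 3.81 CPM in control (-1.36 ± 0.29 with both and -1.63 ± 0.30 with Chordin, adjusted p = 0.00273 and 0.00108). The col28a1.L gene, of the beaded and anchoring group, had 0.249 and 0.392 CPM with both proteins, 0.388 and 0.437 CPM with Chordin, 0.633 and 0.55 CPM with Pinhead and 1.39 and 1.31 CPM in control. It fell with both proteins (-2.04 ± 0.45, adjusted p = 0.00302) and with Chordin (-1.69 ± 0.42, adjusted p = 0.00632), the second lost by DESeq2 (adjusted p = 0.00227 to 0.0847 across all alternatives). The fibril-associated col14a1.L, chosen after its values were seen, had 1.81 and 0.671 CPM with both proteins, 0.332 and 0.601 CPM with Chordin, 5.85 and 4.06 CPM with Pinhead and 3.98 and 4.26 CPM in control. It fell by 3.12 with Chordin on the log2 scale (SE 0.48, adjusted p = 0.000395) and by 1.75 with both proteins (SE 0.42, adjusted p = 0.00504, -2.62 and -1.16 without libraries 7 and 8). Collagen I, the major fibril of skin and bone, had 1 abundant gene here. The col1a2.L gene was the 1 gene of the 69 called lower with both proteins than with Chordin, and it had 10.5 and 8 CPM with both proteins, 27 and 28.7 CPM with Chordin, a mean of 12.3 ± 0.23 CPM with Pinhead (SD, n = 2) and 14.8 and 17 CPM in control. It rose with Chordin by 0.81 ± 0.14 over control (adjusted p = 0.00091) and was lower with both proteins than with Chordin (-1.59 ± 0.15, adjusted p = 0.000325). Its short copy had 0.0623 and 0.28 CPM with both proteins, 0.443 and 0.328 CPM with Chordin, 2.79 and 1.79 CPM with Pinhead and 2.11 and 3.02 CPM in control. So col1a2.S fell with Chordin (-2.71 ± 0.49, adjusted p = 0.00101) while the long copy rose, and with the copies summed the Chordin difference was 0.60. The partner chain gene col1a1.L had no count in any library, which allows up to 0.206 CPM in the shallowest, and col1a1.S reached 0.158 CPM at most.

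The laminin gene lama1.L was far lower in libraries without Chordin. This gene, whose alpha chain belongs to the first laminin of early vertebrate embryos, had 187 and 215 CPM with both proteins and 195 and 168 CPM with Chordin, against 2.69 and 3.85 CPM with Pinhead and 0.724 and 1.97 CPM in control. Every library with Chordin lay far above every library without it. The level was 151-fold that of control with both proteins (7.24 ± 0.29, adjusted p = 1.27e-07, 8.10 without library 2) and 136-fold with Chordin (7.09 ± 0.29, adjusted p = 1.16e-07, 7.96 without library 2). Pinhead over control was 1.28 (adjusted p = 0.0559), which missed the threshold but passed it without library 2 (2.15), 7 or 8, by DESeq2, with no filter and with only the 2 groups fitted (adjusted p = 1.24e-05 to 0.272 across all alternatives). Neural markers, 13 genes, also followed Chordin, with sums of 3035 and 3189 CPM with both proteins, 2141 and 2056 CPM with Chordin, 119 and 184.5 CPM with Pinhead and 240 and 213 CPM in control, and their part in the lama1.L result was not tested.

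Besides lama1.L, 4 alpha chain genes were tested, and 3 of them fell with Chordin, as did 32% of all genes. The lama5.L gene, the alpha chain of many epithelial basement membranes, had 52.9 and 49.6 CPM with both proteins, 60.4 and 60.9 CPM with Chordin, 114 and 101 CPM with Pinhead and 80.1 and 86.3 CPM in control. It was lower than in control with both proteins (-0.70 ± 0.10, adjusted p = 0.000186) and with Chordin (-0.46 ± 0.10, adjusted p = 0.00244). The short copy lama5.S had 4.17 and 3.58 CPM with both proteins, 2.71 and 2.29 CPM with Chordin, 11.9 and 11.4 CPM with Pinhead and 6.64 and 8.66 CPM in control. It was lower with both proteins (-0.98 ± 0.20, adjusted p = 0.00226) and with Chordin (-1.61 ± 0.21, adjusted p = 0.000147). The lama2.L gene, known from muscle basement membrane and chosen after its values were seen, had 0.249 and 0.168 CPM with both proteins, 0 and 0 CPM with Chordin, 0.58 and 0.825 CPM with Pinhead and 1.33 and 0.853 CPM in control. With Chordin it was at least 13.3-fold lower than in control (3 counts over the Chordin group; adjusted p = 0.00043).

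Beta and gamma chains rose with Pinhead. The lamb1.L gene had 125 and 149 CPM with both proteins, 59.3 and 63.5 CPM with Chordin, 183 and 152 CPM with Pinhead and 70.1 and 64.5 CPM in control. The 4 libraries with Pinhead lay above the 4 without it, and the rise over control was 1.02 ± 0.12 with both proteins and 1.31 ± 0.12 with Pinhead (adjusted p = 8.03e-05 and 0.000343). Over Chordin it was 1.16 ± 0.12 with both proteins (adjusted p = 0.000643), the only laminin called in that comparison. The short copy lamb1.S had 96 and 94.9 CPM with both proteins, 83.4 and 86 CPM with Chordin, 129 and 115 CPM with Pinhead and 35.4 and 35.4 CPM in control, and so also rose with Chordin (1.26 ± 0.09, adjusted p = 3.55e-06). The gamma chain gene lamc1.L had 138 and 148 CPM with both proteins, 129 and 122 CPM with Chordin, 133 and 123 CPM with Pinhead and 58.4 and 63.7 CPM in control. All 3 groups exceeded control, by 1.23 ± 0.09, 1.04 ± 0.09 and 1.07 ± 0.09 (adjusted p = 4.81e-06, 1.21e-05 and 0.000218). The short copy lamc1.S had 68.7 and 69.6 CPM with both proteins, 62.4 and 70.4 CPM with Chordin, 93.8 and 98 CPM with Pinhead and 69.8 and 67.8 CPM in control. Its Pinhead call (0.48 ± 0.09, adjusted p = 0.0131) was lost without library 1 (0.51) or 2 (0.46), with adjusted p = 0.000571 to 0.117 across all alternatives.

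**Figure D4:**
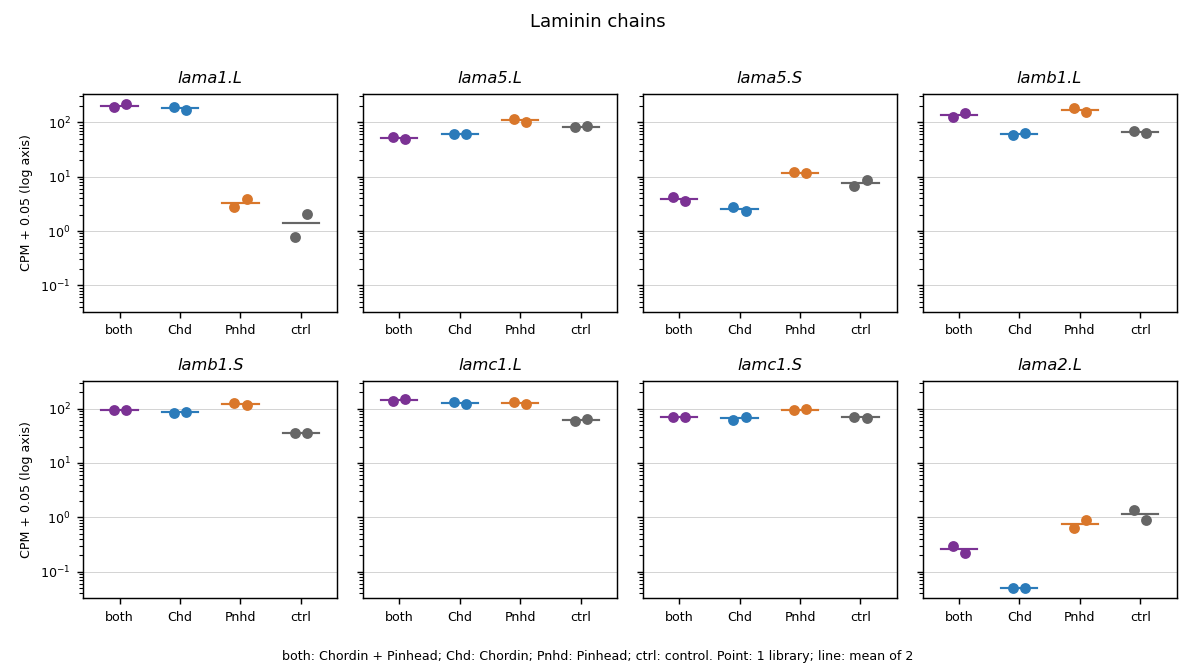
CPM (plus 0.05, log axis) of laminin genes in each library, by group, with the group mean as a line. The lama1.L gene stands at 168 to 215 CPM in the 4 libraries with Chordin and at 0.724 to 3.85 CPM in the 4 without it, and lama5.L lies lower with Chordin than in control.

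Both copies of itga5 and the beta subunit gene itgb3.L fell with Chordin. The itga5.L gene, whose subunit pairs with itgb1 as the main fibronectin receptor, had 12.8 and 9.56 CPM with both proteins, 2.93 and 2.68 CPM with Chordin, 110 and 113 CPM with Pinhead and 73.5 and 68 CPM in control. The groups did not overlap. The level fell 25.2-fold with Chordin (-4.65 ± 0.16, adjusted p = 4.18e-08) and 6.35-fold with both proteins (-2.67 ± 0.14, adjusted p = 4.92e-07). With both proteins it was 3.96-fold above Chordin alone (1.99 ± 0.17, adjusted p = 0.000181). The short copy itga5.S had 12.3 and 6.77 CPM with both proteins, 1.99 and 1.69 CPM with Chordin, 71 and 62.6 CPM with Pinhead and 54.4 and 57.7 CPM in control, a 30.3-fold fall with Chordin (-4.92 ± 0.27, adjusted p = 6.14e-07). The beta subunit gene itgb3.L, whose product serves in receptors for vitronectin and fibrinogen, had 7.41 and 0.448 CPM with both proteins, 0.72 and 0.546 CPM with Chordin, 55.4 and 57 CPM with Pinhead and 74.8 and 65.5 CPM in control. It was 109.6-fold lower with Chordin than in control (-6.78 ± 0.76, adjusted p = 5.16e-05).

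With both proteins, the itgb3.L difference from control rested on unequal libraries: it was -4.20 ± 0.60 (adjusted p = 0.000221), -7.29 without library 7 and -3.21 without library 8. Library 8 held 0.0604 times the level of library 7 for this gene, beside 0.0311 times for tp63.L and 0.0046 times for the epidermal tight junction gene cldn1.L. Other epidermal markers differed less. The ratio was 0.155 for tp63.S, 0.163 for cldn1.S, 0.399 for itln1.L, 0.693 for has1.S, 0.884 for grhl3.S and 0.961 for grhl3.L. The multiciliated cell markers, 6 genes, summed to 63.7 and 30.4 CPM with both proteins, 2.55 and 3.5 CPM with Chordin, 498 and 442 CPM with Pinhead and 491 and 519 CPM in control. The part of these epidermal and ciliated cell markers in the itga5 and itgb3 results was not tested.

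Genes of laminin-binding alpha subunits were called in both directions. Of 4 tested, 1 rose and 3 fell with Chordin, against 31.7% and 32% of all genes. The itga3.S gene had 11.7 and 7.66 CPM with both proteins, 8.58 and 9.12 CPM with Chordin, 87.9 and 77.3 CPM with Pinhead and 73.8 and 76.4 CPM in control, and fell 7.78-fold with both proteins and 8.47-fold with Chordin (adjusted p = 1.05e-06 and 7.23e-07). Its long copy itga3.L had 21.6 and 37.5 CPM with both proteins, 18.1 and 16.2 CPM with Chordin, 46.4 and 48.8 CPM with Pinhead and 40.8 and 37.4 CPM in control, and fell with Chordin (-1.19 ± 0.22, adjusted p = 0.00102). The range with both proteins reached that of control. The itga6.L gene, whose subunit joins itgb1 or, in hemidesmosomes, itgb4, went up instead: it had 101 and 126 CPM with both proteins, 69.8 and 63.9 CPM with Chordin, 76.2 and 69.2 CPM with Pinhead and 43.9 and 48.8 CPM in control. It rose with both proteins by 1.29 ± 0.13 (adjusted p = 2.13e-05) and with Chordin by 0.53 ± 0.13 (adjusted p = 0.0048). The short copy itga6.S had 10.1 and 19 CPM with both proteins, 5.26 and 4.48 CPM with Chordin, 13.1 and 11.9 CPM with Pinhead and 11.3 and 14.1 CPM in control, and fell with Chordin (-1.38 ± 0.29, adjusted p = 0.00232). With copies summed, itga6 in Chordin explants stood 0.27 above control on the log2 scale, which missed the threshold (adjusted p = 1.35e-11 to 0.116 across all alternatives of the itga6.S result).

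Both itgb5 copies rose with Chordin, among 5 rises and 2 falls over 11 beta subunit genes tested, where 31.7% and 32% of all genes rose and fell. The itgb5 product pairs with the alpha-V subunit as a vitronectin receptor. The itgb5.L gene had 66 and 70.5 CPM with both proteins and 87.2 and 88.3 CPM with Chordin, against 12.2 and 17.5 CPM with Pinhead and 17 and 13.7 CPM in control (2.15 ± 0.16 with both proteins and 2.51 ± 0.16 with Chordin, adjusted p = 4.77e-06 and 1.76e-06). The short copy itgb5.S had 82.1 and 81.1 CPM with both proteins and 102 and 103 CPM with Chordin, against 16.4 and 21.3 CPM with Pinhead and 22.9 and 19.4 CPM in control (1.95 ± 0.14 and 2.28 ± 0.14, adjusted p = 2.78e-06 and 1.01e-06). Pinhead libraries overlapped those of control for both copies. The itgb7.L gene, whose mammalian counterpart is known from lymphocytes, had 48.9 and 56 CPM with both proteins, 47.3 and 48.4 CPM with Chordin, 30.4 and 25.7 CPM with Pinhead and 25.8 and 28.3 CPM in control (0.96 ± 0.12 and 0.83 ± 0.12, adjusted p = 8.77e-05 and 0.000229), and was chosen after its values were seen.

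The copies of itgb1, the beta subunit shared by most of these receptors, were called in opposite directions with both proteins. The itgb1.L gene had 107 and 126 CPM with both proteins, 102 and 105 CPM with Chordin, 179 and 163 CPM with Pinhead and 159 and 149 CPM in control, 1.49-fold lower with Chordin (-0.58 ± 0.10, adjusted p = 0.000941). The itgb1.S gene had 116 and 130 CPM with both proteins, 92.8 and 95.6 CPM with Chordin, 120 and 117 CPM with Pinhead and 95.7 and 90.5 CPM in control, and rose with both proteins (0.41 ± 0.09, adjusted p = 0.00339). The long copy fell there (-0.40 ± 0.10, adjusted p = 0.00735; lost without library 1, -0.34), and summed they differed from control by -0.05 (adjusted p = 0.000585 to 0.61 across all alternatives of the itgb1.L result). The hemidesmosome subunit gene itgb4.S had 1.68 and 1.79 CPM with both proteins, 2.21 and 2.24 CPM with Chordin, 7.17 and 4.06 CPM with Pinhead and 1.39 and 0.722 CPM in control. Pinhead explants were 5.3-fold above control (2.41 ± 0.38, adjusted p = 0.00527), a call lost without library 2 (2.02; adjusted p = 1.78e-10 to 0.064 across all alternatives). The long copy itgb4.L had 2.99 and 2.29 CPM with both proteins, 2.77 and 3.11 CPM with Chordin, 3.69 and 5.16 CPM with Pinhead and 4.89 and 3.74 CPM in control. Its fall with both proteins (-0.71 ± 0.28, adjusted p = 0.0458) was lost by DESeq2, with copies summed (-0.31), with only the 2 groups fitted and without any 1 of libraries 1, 2, 3, 4 and 8 (-0.89 to -0.50; adjusted p = 0.0234 to 0.26 across all alternatives). The itga4.S gene, for a receptor of fibronectin and of a vascular adhesion molecule, had 0.125 and 0.224 CPM with both proteins, 0.222 and 0.109 CPM with Chordin, 1.79 and 1.72 CPM with Pinhead and 0.422 and 0.525 CPM in control. Its rise with Pinhead (1.88 ± 0.43, adjusted p = 0.0264) was lost by DESeq2 and without any 1 of libraries 1 to 6 (1.74 to 2.04; adjusted p = 0.00899 to 0.223 across all alternatives). The copy itga4.L had 0 and 0.28 CPM with both proteins, 0 and 0 CPM with Chordin, 1 and 1.03 CPM with Pinhead and 0.121 and 0.0656 CPM in control, and its rise with Pinhead missed the threshold (adjusted p = 0.0514). Both itga4 copies were tested only through their counts with Pinhead, which favours such a rise.

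**Figure D5:**
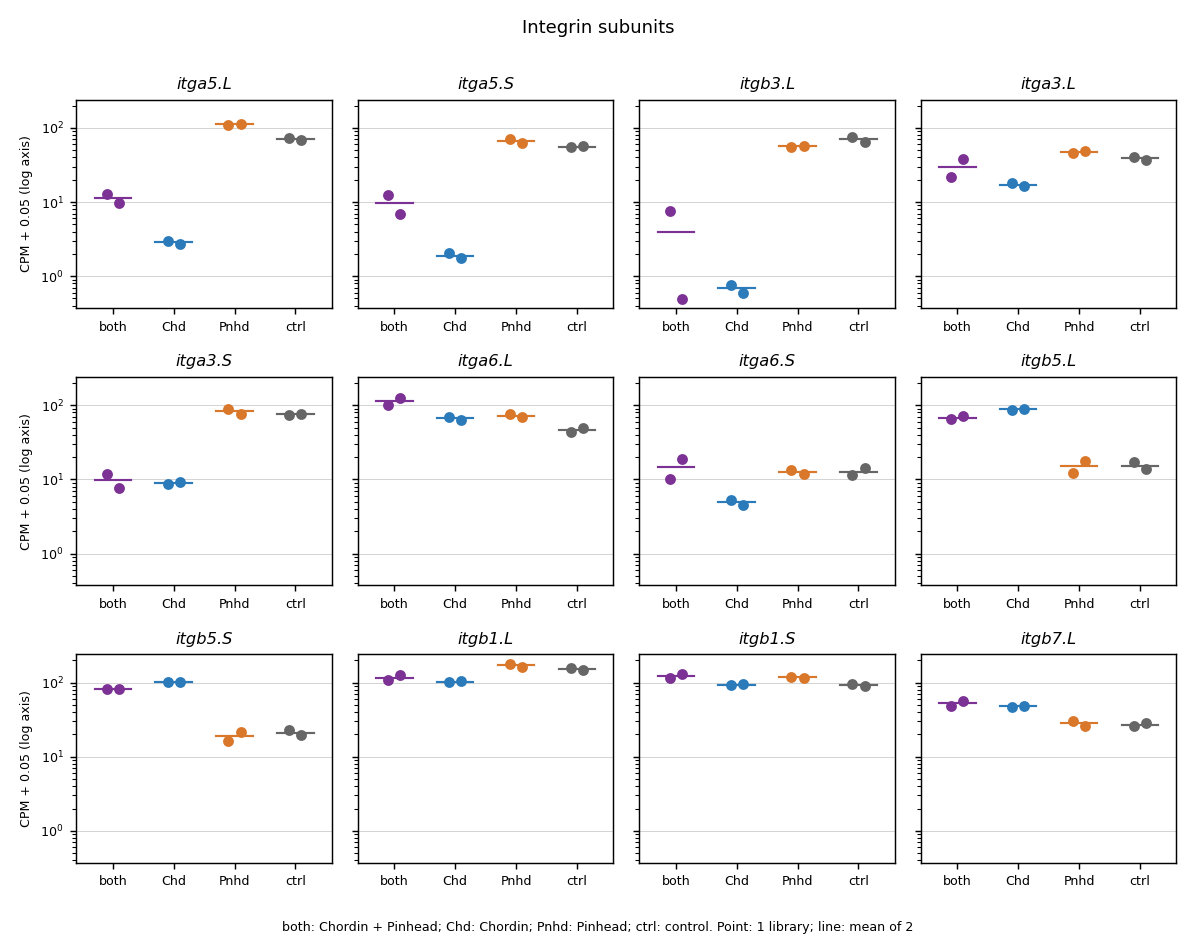
CPM (plus 0.05, log axis) of integrin genes in each library, by group, with the group mean as a line. The itga5 copies, itgb3.L and itga3.S lie low in the 4 libraries with Chordin, the itgb5 copies lie high in them, and itgb3.L differs between libraries 7 (7.41 CPM) and 8 (0.448 CPM).

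The interaction of the proteins, that is, whether the effect of Chordin differed with and without Pinhead, was called higher for 11 of the 69 genes and lower for 6, where 5.24% and 5.72% of all genes were called. Of the 11, 8 were collagens, or 20.5% of those tested (2, 4, 3, 2 and 3 genes without libraries 1 to 5 in turn). The other 3 were integrins, or 14.3% of those tested (0 genes without library 3 or 4, 5 without library 7 or 8). Some of the 8, such as col8a1.L, col9a1.L and col9a2.L, were tested only through their counts with both proteins, which favours such a call. For col9a2.L the difference between the effects was 7.86 ± 1.22 (log2; adjusted p = 0.00604, 7.06 without library 8), for col9a3.L 1.75 ± 0.26 (adjusted p = 0.00499). The size for col9a2.L is uncertain, as each Chordin library held fewer than 3 counts of it. In the other direction it was -1.62 ± 0.13 for lamb1.S (adjusted p = 0.000265), -0.88 ± 0.13 for lamc1.L (adjusted p = 0.0048) and -1.75 ± 0.20 for col18a1.S (adjusted p = 0.00142), genes that each protein alone had raised. These 5 calls held on leaving out any 1 library, and with copies summed the col18a1 value was 0.30, past 0 in the other direction and not called. The counts of calls changed: 11 became 4, 6, 3, 2 and 5 without libraries 1 to 5 in turn and 17 without library 8, and 6 became 3 without library 3 or 4 and 10 without library 7.

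Long and short copies of the same gene could be compared for 24 genes with both copies tested. Reads of near-identical copies can be exchanged in counting, so differences between copies are uncertain. The split over all gene pairs is not given here. Of all single genes tested, 65.4% were called with both proteins against control, 63.7% with Chordin against control and 10.7% with both proteins against Chordin. With both proteins against control, both copies were called in the same direction for 12 genes and 1 copy alone for 10, and itgb1 alone had opposite calls (0 genes without library 1, 2 without library 7). With Chordin, both were called alike for 5 genes and 1 copy alone for 13, and col1a2 and itga6 had opposite calls. Between both proteins and Chordin, 8 genes had both copies called alike (5 and 3 without libraries 3 and 4). Opposite calls numbered 0 in that edgeR comparison, where 7 genes had 1 copy called (4 without library 8). With the counts of both copies summed, differences from control shrank where the other copy changed less: with both proteins to 1.5 for col18a1, 0.81 for col5a2, 2.98 for col9a1 and -1.55 for itga3, with Chordin to 0.37 for col18a1, -0.54 for lama5 and 0.50 for lamb1, and with Pinhead to 0.84 for col18a1 and 0.91 for itgb4. They were 5.93 for col5a3-like and 4.05 for col9a2 with both proteins, and -2.14 for itga3 with Chordin, each between the values of the copies. Over Chordin both proteins gave 6.12 for col9a2 and 7.77 for col8a1, and the interaction was 6.51 for col9a2 and -0.83 for lamb1.

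Genes for partners of the basement membrane included more rises than falls. This list and those of the next paragraphs were drawn up with earlier results of these data known. Of 26 tested genes for nidogens, perlecan, agrin, dystroglycan and related proteins, 17 rose and 5 fell with both proteins, 15 rose and 6 fell with Chordin, and 12 rose with Pinhead, with median log2 fold changes of 1.38, 1.01 and 0.83. Of all genes, 33.3% rose and 32.1% fell with both proteins, 31.7% rose and 32% fell with Chordin, and 6.75% rose with Pinhead. Without library 2, 3 fell with both proteins, and without libraries 1 and 5, 7 and 6 rose with Pinhead. None fell with Pinhead in the edgeR test (1 at an unadjusted p under 0.05, and 0 by DESeq2). The dag1.S gene for dystroglycan, a laminin receptor outside the integrins, had 131 and 142 CPM with both proteins, 116 and 113 CPM with Chordin, 75.4 and 60.7 CPM with Pinhead and 6.09 and 8.53 CPM in control (4.22, 3.97 and 3.22 on the log2 scale, adjusted p = 1.34e-07, 1.53e-07 and 1.41e-05). The collagen-binding glycoprotein gene sparc.S had 39 and 63.1 CPM with both proteins and 45.8 and 40.8 CPM with Chordin, against 6.43 and 6.61 CPM with Pinhead and 2.84 and 1.51 CPM in control (4.54 and 4.30 over control, adjusted p = 2.08e-06 and 2.52e-06). The perlecan gene hspg2.L had 112 and 118 CPM with both proteins, 24.4 and 28.5 CPM with Chordin, 122 and 140 CPM with Pinhead and 65.6 and 75.9 CPM in control, lower with Chordin (-1.42, adjusted p = 9.58e-06) and higher with both proteins than with Chordin (2.12, adjusted p = 3.98e-05). The agrin gene agrn.S had 3.99 and 1.9 CPM with both proteins and 1.94 and 2.19 CPM with Chordin, against 37 and 36.7 CPM with Pinhead and 16.1 and 19 CPM in control (Chordin over control -3.08, adjusted p = 9.46e-06; both over control -2.59, or -3.22 without library 7).

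Genes for enzymes and chaperones of collagen synthesis were more often higher than lower with both proteins than with Chordin. Of 38 tested genes, 13 were higher and 1 lower with both proteins than with Chordin, against 6.46% and 4.25% of all genes. The 13 became 8 without library 1 or 2 and 4 without library 3 or 4, and the 1 became 2 without library 7. Against control, 17 rose and 8 fell with both proteins, 12 rose and 12 fell with Chordin, and 4 rose and 1 fell with Pinhead, with medians of 0.40, -0.13 and -0.14. The counts with Chordin were near the shares of all genes (31.7% and 32%), beside 33.3% and 32.1% with both proteins and 6.75% and 3.92% with Pinhead. With Pinhead, 1, 1 and 2 rose without libraries 1, 2 and 5, and the 1 fall was lost without any 1 of libraries 1 to 6 and became 4 without library 7 or 8. The lysyl hydroxylase gene plod2.L, which prepares collagen for cross-linking, had 22.7 and 67.1 CPM with both proteins, 1.16 and 1.26 CPM with Chordin, 19.7 and 20.9 CPM with Pinhead and 0.181 and 0.459 CPM in control. It was higher with both proteins than with Chordin by 5.21 (adjusted p = 0.000529, 4.23 without library 8) and higher with Pinhead than in control by 5.98 (adjusted p = 0.00125, 6.75 without library 2). The collagen chaperone gene serpinh1.S had 64.5 and 105 CPM with both proteins, 30.3 and 30.9 CPM with Chordin, 10.8 and 11.3 CPM with Pinhead and 16.5 and 15.8 CPM in control (both over Chordin 1.48, adjusted p = 0.00169). The 1 lower gene was creb3l1.S, a transcription factor of secretory cells, with 14.6 and 11.3 CPM with both proteins, 26.6 and 23.3 CPM with Chordin, 3.11 and 3.78 CPM with Pinhead and 3.8 and 4.79 CPM in control. That call (-0.94, adjusted p = 0.00812) was lost without library 3 (-0.86) or 4 (-1.05), with adjusted p = 1.94e-06 to 0.111 across all alternatives.

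Genes for fibronectin and for linkers between integrins and actin were counted in the same way. Of 38 tested genes, 9 rose and 16 fell with both proteins, 10 rose and 18 fell with Chordin, and 8 rose with Pinhead, with medians of -0.11, -0.32 and 0.26. Of all genes, 33.3% rose and 32.1% fell with both proteins, 31.7% rose and 32% fell with Chordin, and 6.75% rose with Pinhead. Without library 2, 5 rose with both proteins and 6 with Chordin, and without libraries 1, 2 and 5, 2, 3 and 5 rose with Pinhead. None fell with Pinhead in the edgeR test (2 at an unadjusted p under 0.05, and 0 by DESeq2), and 1 fell without library 7 or 8. The fibronectin gene fn1.L, for the ligand of the itga5 receptor, had 52 and 64.7 CPM with both proteins, 37.8 and 36 CPM with Chordin, 109 and 116 CPM with Pinhead and 65.1 and 66.5 CPM in control. It fell with Chordin (-0.83, adjusted p = 0.000186), and its rise with Pinhead (0.78, adjusted p = 0.00348) was lost without library 1 (0.77; adjusted p = 1.87e-08 to 0.0537 across all alternatives). The kindlin gene fermt1.S, for an activator of integrins in epithelia, had 6.29 and 0.168 CPM with both proteins, 0.332 and 0.218 CPM with Chordin, 42.2 and 36.9 CPM with Pinhead and 32.8 and 32.6 CPM in control. With Chordin it fell by 6.86 (adjusted p = 0.000178), and with both proteins by 3.39 (adjusted p = 0.00141; -7.56 and -2.35 without libraries 7 and 8). The related kindlin gene fermt2.L had 56.8 and 59.2 CPM with both proteins and 52.3 and 50.5 CPM with Chordin, against 27.3 and 19.5 CPM with Pinhead and 17.6 and 15.9 CPM in control (1.79 and 1.62, adjusted p = 8.05e-06 and 1.44e-05). The collagen receptor kinase gene ddr2.S had 138 and 162 CPM with both proteins and 157 and 145 CPM with Chordin, against 25.7 and 35 CPM with Pinhead and 30.7 and 21.9 CPM in control (2.51 and 2.52, adjusted p = 4.22e-06 and 3.84e-06). The epidermal marker sum given above fell with Chordin as fermt1.S did, and the neural sum rose as fermt2.L and ddr2.S did. The fn1.L gene moved less closely with these sums, being highest with Pinhead. The part of these markers in the results was not tested.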

How the data were processed

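Total RNA of 8 Xenopus laevis explant libraries, 2 in each of 4 groups, was sequenced as paired ends per the labels. The deposited table holds raw counts per gene in 2 run columns for each library. The submitters' processing notes name HISAT2. Which version, counting program, genome build and annotation were used is not given in the sources used here. Both runs of a library were summed (mean chi-square per gene 1.39 to 1.52 between runs and 3.03 to 11.8 between libraries of a group). Of the table, 1 line without a gene name was not analysed here.

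Counts of 15052017 to 19677493 per library were scaled by TMM with edgeR 4.0.16 (limma 3.58.1, R 4.3.3), filtered by filterByExpr (minimum count 10, minimum total 15), which left 23130 of 45035 genes, and fitted with 1 quasi-likelihood model over the 4 groups (4 residual degrees of freedom). P-values, 2-sided, were Benjamini-Hochberg adjusted over all genes tested, separately in each of 6 comparisons. SEs come from each log2 fold change and its F statistic. A fold is fitted where both groups held more than 3 counts, a bound taken at 3 counts a group where 1 held none, and otherwise a ratio with a 95% counting interval. Bounds and intervals cover counting error alone. Figures were drawn in Python 3.11.15 with matplotlib 3.10.9.

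Named members were all copies of core genes (col1a1, col1a2, col2a1, col4a1, col4a2, col9a1, col9a2, col9a3, col11a1, col18a1, lama1, lama5, lamb1, lamc1, itga3, itga5, itga6, itgb1 and itgb4), called members without overlap and with a mean of at least 5 CPM in the higher group (up to 8 per direction and comparison by fold change), and up to 3 per role by adjusted p. From the pathway lists, genes were taken among the 3 largest called changes per direction. Members and lists were chosen with earlier results of these data known. Gene symbols of 88 of the 122 chains and subunits were found in RefSeq's table for Xenopus_laevis_v10.1, used for gene order alone. Alternatives were DESeq2 1.42.0, median-ratio size factors, no filter, only the groups compared, each library left out, and copies summed.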

Additional observations from a re-analysis of the deposited data

Results flagged for a closer look

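For 17 of the 69 tested genes the effect of Chordin differed with and without Pinhead in a test of the difference itself (edgeR quasi-likelihood interaction, Benjamini-Hochberg adjusted p under 0.05 over all genes). That was 24.6% of the 69, beside 11% of all genes tested. By direction, 15.9% were called higher and 8.7% lower, beside 5.24% and 5.72% of all genes. The values are log2 fold changes of the interaction, and a positive one means that Chordin raised the gene more, or lowered it less, with Pinhead than without. Some genes, such as col8a1.L, col9a1.L, col9a2.L and col9a2.S, were tested only through their counts with both proteins, which favours a positive value.

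Among collagens it was 3.12 for col2a1.L, 4.55 for col9a1.L, 7.86 for col9a2.L, 4.38 for col9a2.S, 1.75 for col9a3.L, 2.28 for col9a3.S and 0.64 for col18a1.L. The size for col9a2.L is uncertain, as each Chordin library held fewer than 3 counts of it. For col8a1.L, with 2 counts in the Chordin group, the adjusted p was 0.0102 and no fold is given. Of the other collagens called, 2 had a negative value. The value was -1.75 for col18a1.S and -1.23 for col1a2.L. Among laminins it was -0.61 for lama5.L, -1.62 for lamb1.S and -0.88 for lamc1.L. Among integrins it was 1.33 for itga5.L, 2.11 for itga5.S, 1.60 for itga6.S and -2.76 for itgb4.S. The calls of col18a1.S, col9a2.L, col9a3.L, lamb1.S and lamc1.L held without any 1 library. The others were lost without at least 1 of libraries 1 to 6: col1a2.L without 1, 3 or 4, both itga5 copies without 3 or 4, col8a1.L without 1 or 4, and col18a1.L without 1, 3, 4 or 5. Those of col9a2.S, col9a3.S and lama5.L were lost without any 1 of libraries 1 to 5, that of itgb4.S without any 1 of libraries 2 to 5, and those of col2a1.L, col9a1.L and itga6.S without any 1 of libraries 1 to 6.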

How the results depend on the processing

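With 2 libraries a group, counts of calls depended on single libraries in the comparisons of Pinhead with control, of both proteins with Chordin, and in the interaction. Over leaving out each library, genes called higher with Pinhead numbered 471 to 2577 over all genes and 5 to 19 among collagens, laminins and integrins, and lower 89 to 1911 and 0 to 2. For both proteins against Chordin, they were 472 to 2056 and 13 to 27 higher, and 174 to 2179 and 1 to 2 lower. For the interaction, they were 254 to 2169 and 2 to 17 higher, and 273 to 2805 and 3 to 10 lower. With no filter on low counts, 1651 genes overall and 1 of these families were lower with Pinhead, 2483 were higher and 1645 and 3 lower with both proteins than with Chordin, and the interaction was called higher for 2338 and 17 genes and lower for 2157. With only the groups compared in the fit, 1619 and 1 were lower with Pinhead and 3 of these families lower with both proteins than with Chordin. Summing the copies turned the sign for col1a2.S (0.60), itga6.S (0.27), itgb4.S (-0.07) and itgb8.S (-0.01) with Chordin, itgb1.S with both proteins (-0.05) and col18a1.S in the interaction (0.30). Of 277 results for named genes, 186 kept their direction and call in every setting. For the other 91 the cause was not tested. DESeq2 and median-ratio size factors moved none of these counts of calls by over 1.5 times, over all genes or over collagens, laminins and integrins together. Of the 277 results, however, 35 lost their call by DESeq2 and 3 with median-ratio size factors. By DESeq2, 20 rather than 25 genes of these families were higher with both proteins than with Chordin, and 10 rather than 14 higher with Pinhead. No paired analysis was made, because the labels name no pairing of libraries between groups. At this depth a count of 0 allows 0.158 to 0.206 CPM, and the 53 genes not tested never passed 13 counts in a library.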
